A study of Mus musculus with 4 samples.

Results

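The stretch of mouse chromosome 8 that holds Fto and the Iroquois genes Irx3, Irx5 and Irx6 carried 39 of the 11224 TBX5 binding peaks listed for the embryonic forelimb. Its peaks were chosen by position, as all listed peaks on chromosome 8 with a summit between 93.6 and 95.4 Mb. The region itself was selected on measured values of the same list, because it holds 1 of the strongest peaks, so its peak number and signal values are given as a description, with no test. The study profiled TBX5 by ChIP-seq, in which DNA bound by a protein is recovered with an antibody and sequenced. Forelimbs came from wild-type embryos of outbred ICR mice at embryonic day 10.5. The tissue is a mixture of limb cell types, and how many embryos or limbs went into each library is not given in the sources used here. A total of 2 libraries were made with a polyclonal TBX5 antibody and 2 from input chromatin, and a single peak list represents both TBX5 replicates.

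TBX5 is a T-box transcription factor that is required for the forelimb bud to form. Irx3, Irx5 and Irx6 encode homeodomain transcription factors of the TALE class and form 1 of the 2 Iroquois gene clusters of mammals. Irx3 and Irx5 are known for roles in patterning the early limb bud and in the heart, and loss of both genes together disturbs the skeleton of the hindlimb. Fto encodes a demethylase that acts on methylated adenosine in RNA, and its introns are known to contain enhancers that contact Irx3 over a long distance. The Fused toes mouse, which lacks a segment that includes Fto, Irx3, Irx5 and Irx6, has malformed limbs.

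Each listed peak had 1 deposited signal value, the strength given by the authors' peak caller on a scale not stated in the sources used here, and 1 score from the irreproducible discovery rate (IDR), which rates how well a peak recurs between replicates. A score of 1000 is the highest possible and a score of 540 corresponds to the IDR limit of 0.05. Values of single replicates were not analysed here, so no difference between peaks could be set against replicate error.

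Gene positions were the approximate mm9 positions that come with the definition of the region. Fto was placed at 93.84 to 94.19 Mb, Irx3 near 94.32 Mb, Irx5 near 94.88 Mb and Irx6 near 95.2 Mb. They are rounded, so distances from them carry a rounding error of up to 5 kb, and up to 50 kb for Irx6. Which end of an Iroquois gene they mark is not stated. Irx3 lies on the minus strand, so distances to its annotated start can differ by more than this rounding. The labels name mm10 instead, and read on that build the region would overlap 38 protein-coding genes, none of them Fto or an Iroquois gene. On that build 22 summits of chromosome 8 would also lie beyond its last annotated gene, reaching 1.81 Mb past it. The build was therefore checked with the 615 summits of chromosome 8 and the gene starts of RefSeq's GRCm38.p6 promoter table. As listed, 12 summits lay within 1 kb of a gene start. With all summits moved by -2524 kb the number was 33, the highest of 8001 shifts, whose mean was 11.9 ± 3.80 (SD over shifts) and whose next highest count was 28. The mm9 positions of Fto, Irx3, Irx5 and Irx6 differ from their GRCm38.p6 positions by 2.52 to 2.53 Mb, a range that includes this shift. With a distance of 500 bp the same shift was highest (23 summits against 19 for the next), whereas with 2 kb it gave 43 summits and another shift gave 45. Among the 77 summits between 90 and 97 Mb alone, this shift gave 7 summits within 1 kb and was not the highest, at most 10 being reached by others. The gene names below rest on the mm9 reading.

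**Figure D1:**
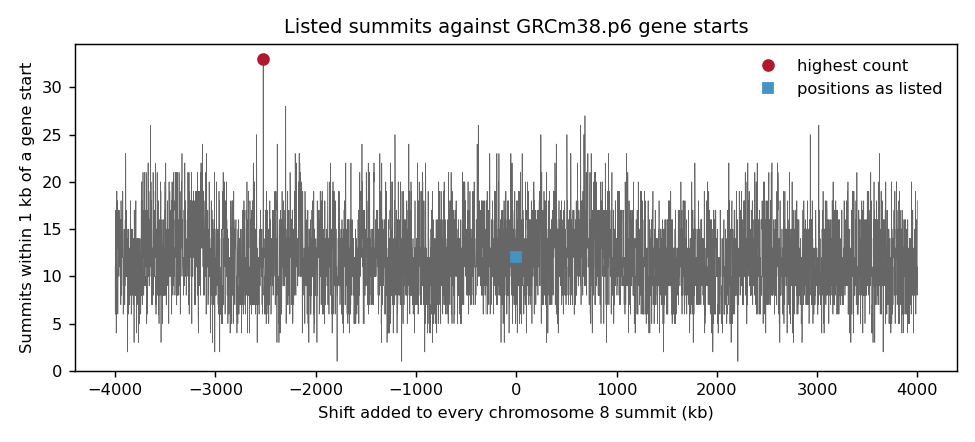
Number of chromosome 8 summits within 1 kb of a GRCm38.p6 gene start (vertical axis) after a shift in kb was added to every summit (horizontal axis). The count is highest, at 33, for a shift of -2524 kb, and is 12 for the positions as listed.

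No genome of the mm9 build was used here, so the DNA under the peaks is not shown. The RefSeq promoter table matched 9 of 13 genes looked up, which were those of the region and its neighbours and, for comparison, the other Iroquois genes Irx1, Irx2 and Irx4. Among the matches were Irx3, Fto and Crnde, a long non-coding RNA gene that begins beside Irx5. Irx5, Irx6, Irx1 and the neighbour Mmp2 had no entry, so the promoters of Irx5 and Irx6 were not examined. The upstream sequences of Irx3 and Crnde are shown because they mark the starts at and beside the main genes of the region, where no listed summit lay within 10 kb. Both run 5′ to 3′ on the minus strand of GRCm38.p6, end at the base before the annotated start, and lie at chr8:91801655-91801904 for Irx3 and chr8:92356121-92356370 for Crnde. Capitals would mark the T-box core GGTGT or its reverse complement ACACC.
Irx3: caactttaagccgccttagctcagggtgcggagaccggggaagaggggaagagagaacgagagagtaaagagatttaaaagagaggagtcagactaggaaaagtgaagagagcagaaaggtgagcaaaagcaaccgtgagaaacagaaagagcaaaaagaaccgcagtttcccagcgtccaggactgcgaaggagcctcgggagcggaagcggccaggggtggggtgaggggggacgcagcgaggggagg
Crnde: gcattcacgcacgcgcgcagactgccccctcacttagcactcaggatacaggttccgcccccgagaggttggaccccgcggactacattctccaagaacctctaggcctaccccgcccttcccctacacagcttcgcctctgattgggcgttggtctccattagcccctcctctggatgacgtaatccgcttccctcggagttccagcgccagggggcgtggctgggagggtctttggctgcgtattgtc
Neither sequence holds the core on either strand, so no base is in capitals. Among all 32851 promoter sequences of the same 250 bp length, 36.2% hold it. The longer form AGGTGTG (reverse complement CACACCT), which contains the core, occurs in 5.10% of them. Of the 9 genes matched, the chromosome 8 neighbours Aktip and Lpcat2 and, on chromosome 13, Irx4 hold the core in at least 1 entry, and Lpcat2 alone holds the longer form. Letters in these windows say nothing about binding there.

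The 39 peaks were concentrated in the left part of the region, from Fto to the first part of the interval between Irx3 and Irx5. The Fto gene held 17 of them, the interval from Fto to Irx3 held 4, the interval from Irx3 to Irx5 held 12 and the interval from Irx5 to Irx6 held 4. Only 1 lay before Fto and 1 after Irx6. Per 100 kb this was 4.86 peaks in Fto, 3.08 between Fto and Irx3, 2.14 between Irx3 and Irx5 and 1.25 between Irx5 and Irx6. The interval after Irx6 held 0.50 peaks per 100 kb and the one before Fto 0.417. The region as a whole held 21.7 peaks per Mb, 4.50 times the density of chromosome 8 and 4.91 times that of the list.

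**Figure D2:**
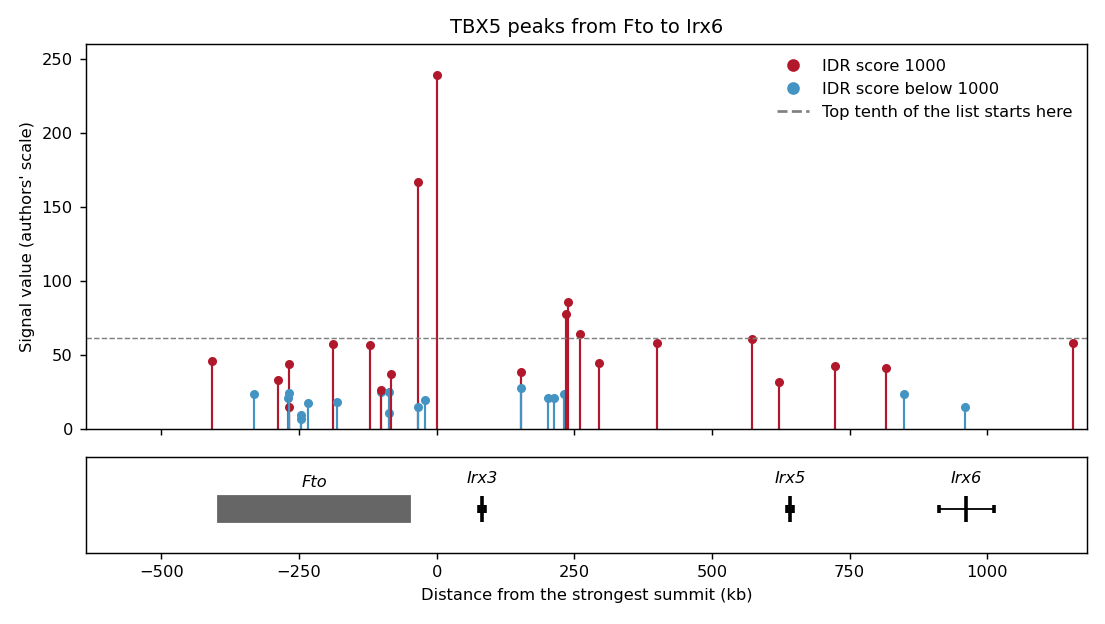
Signal value of each of the 39 peaks (vertical axis) by distance in kb from the strongest summit (horizontal axis), with Fto as a bar and Irx3, Irx5 and Irx6 as ticks whose horizontal bars are the rounding error of their positions. The peaks with signals of 166.5 and 239.3 stand between Fto and Irx3, and no peak stands between 0 and 152.2 kb, where Irx3 lies.

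As listed, Fto held the most peaks but none of the strongest. Its lead over the interval from Irx3 to Irx5, 17 peaks against 12, depended on how peaks were counted. After overlapping or touching peaks were joined it was 14 against 12, and at an IDR of 0.01 or below 9 against 8. The 10% of listed peaks with the highest signal start at a signal of 61.3, and 5 of the 39 peaks (12.8%) were among them, close to the 10% of the list. All 5 lay between the end of Fto and Irx5, and none of the 17 peaks in Fto was among them. The median signal was 23.8 in Fto (range 6.56 to 57.2, n = 17 peaks) and 41.2 between Irx3 and Irx5 (range 20.4 to 85.4, n = 12 peaks). Over the region the median was 27.6 with quartiles of 20.6 and 51.3, against 27.2, 20.3 and 39.9 in the rest of the list.

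**Figure D3:**
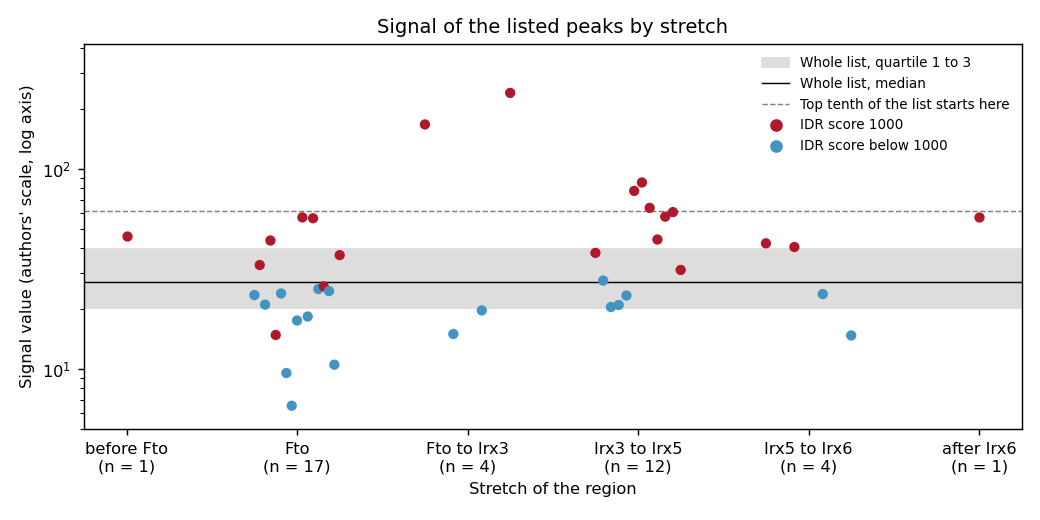
Signal value of each peak on a log axis (vertical) by stretch of the region (horizontal), peaks in order of position, with the median and quartiles of the whole list. All 17 peaks of Fto lie below the line at 61.3 that marks the strongest 10% of the list, and 5 peaks between Fto and Irx5 lie above it.

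The strongest peak of the region lay between Fto and Irx3, at 94237775 to 94238123 with its summit at 94237946. Its signal value of 239.3 had rank 4 in the list and was 8.81 times the list's median. The summit was 47.9 kb beyond the end of Fto and 82.1 kb before Irx3. The peak with the next highest signal in the region, 166.5, was 34.3 kb nearer to Fto at 94203480 to 94203879, only 13.7 kb beyond the end of that gene. Both had a score of 1000. Between them stood a peak of signal 19.6 and score 597, and a weak summit of signal 15.0 was listed 208 bp from the one of 166.5, with the same start. The interval thus consisted of 2 strong and 2 weak entries.

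Irx3 itself lay in a peak-free stretch. From the peak of signal 239.3 the next summit was 152.2 kb away at 94390194, beyond Irx3, with a signal of 38.0 and a score of 1000. Irx3 was therefore 82.1 kb from a peak on 1 side and 70.2 kb on the other, and 3 summits lay within 100 kb of it. Stretches at least this long were common in the list, at 33.4% of the 11204 distances between neighbouring summits. Within the region the median distance was 19.97 kb, against 63.5 kb in the list.

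The interval from Irx3 to Irx5, which holds no other protein-coding gene in RefSeq's gene order, began with 2 summits 923 bp apart, of signal 38.0 and 27.6. Next came 2 weak peaks of signal 20.4 (score 608) and 20.9 (score 771). They were followed by a group of 3 summits within 8.31 kb, whose signals were 23.3 at 94468760, 77.5 at 94472684 and 85.4 at 94477067. A peak of signal 63.8 lay 20.8 kb further on. These 3 peaks of 77.5, 85.4 and 63.8, each with a score of 1000, were the remaining members of the strongest 10%. Farther towards Irx5 the peaks stood alone, with signals of 44.3, 57.6, 60.8 and 31.2 and a score of 1000 each. The one of 60.8 at 94810854 fell just short of the strongest 10%.

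Irx5, like Irx3, had no listed summit within 10 kb of its given position. The nearest lay 20.8 kb before it at 94859225, with a signal of 31.2 and a score of 1000, and the next one 81.2 kb after it at 94961224, with a signal of 42.4 and a score of 1000. Peaks at 95053903 (signal 40.7, score 1000) and 95086810 (signal 23.7, score 711) followed in the direction of Irx6. All 4 peaks between Irx5 and Irx6 were more than 10 kb from any other summit.

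Irx6, the member whose position is known least exactly, was 2.67 kb from a single summit at 95197331. This peak had a signal of 14.7 and the lowest score of the region, 542, which corresponds to an IDR of 0.0495 and is just inside the limit of the list. At the lower end of the rounding of its position, Irx6 would lie before that peak. The only other summit on that side, at 95394329, had a signal of 57.7 and a score of 1000.

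Many of the peaks in Fto stood close together. A group of 4 summits lay within 2.03 kb, from 93968058 to 93970084, with signals of 21.0, 43.8, 14.8 and 23.8. The strongest peaks of the gene stood elsewhere, with signals of 57.2 at 94049676 and 56.6 at 94116902, and both had a score of 1000. The weakest were 2 summits 278 bp apart at 93991572 and 93991850, with signals of 9.55 and 6.56 and a score of 576 each. Of the 17 peaks, 13 (76.5%) had another summit within 10 kb, against 42.7% of the list. The first peak of the region, with a signal of 46.0 and a score of 1000, lay 11.0 kb before the start of Fto. This is the side of Rpgrip1l, a gene for a protein of the ciliary transition zone. Rpgrip1l begins beside Fto and runs away from it on the minus strand, so this summit may lie inside Rpgrip1l, which was not analysed here. Whether peaks in Fto fall in introns or exons was not analysed here.

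Reproducibility in the region was near that of the list. The highest score was reached by 21 of the 39 peaks (53.8%), against 45.4% of the list, and 23 (59.0%) had an IDR of 0.01 or below, against 60%. In Fto 7 of 17 peaks had the highest score, and between the end of Fto and Irx5 10 of 16 did. The peak caller's q-value was above 0.05 for 3 peaks (7.69%, against 6.07% of the list), all in Fto and all with another summit within 500 bp. The common width of 416 bp was found in 28 peaks (71.8%, against 84.3%), and the 11 narrower ones included all 5 peaks of the strongest 10%, as in the list, where 1076 of the 1123 strongest peaks were not of the common width. Another summit lay within 10 kb of 20 peaks (51.3%, against 42.7%). A summit within 500 bp was listed for 8 peaks (20.5%), near the 20.1% of the list, and these formed 4 pairs, of which 3 were in Fto.

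Set against windows of 1.8 Mb laid over all chromosomes, the region was dense. Of 2796 windows, 18 (0.644%) held at least 39 peaks, the median was 6 and the highest was 78. The bounds of the region were set with its peaks known, and the fullest of the 4 windows that overlap it held 38. For the 350 kb of Fto alone, 28 of 14500 windows of that length (0.193%) held at least 17 peaks. For the 690 kb from the end of Fto to Irx5, 28 of 7342 windows (0.381%) held at least 5 of the strongest 10%. Both stretches were chosen after their values were seen. The 5 peaks include the one of signal 239.3 for which the region was selected, so that share is only a description. The last summit before the region was 213.8 kb outside its bound with a signal of 29.6, and the first after it was 1291 kb outside with a signal of 25.5. Inside, the first summit was 229.0 kb from the lower bound and the last 5.67 kb from the upper bound.

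**Figure D4:**
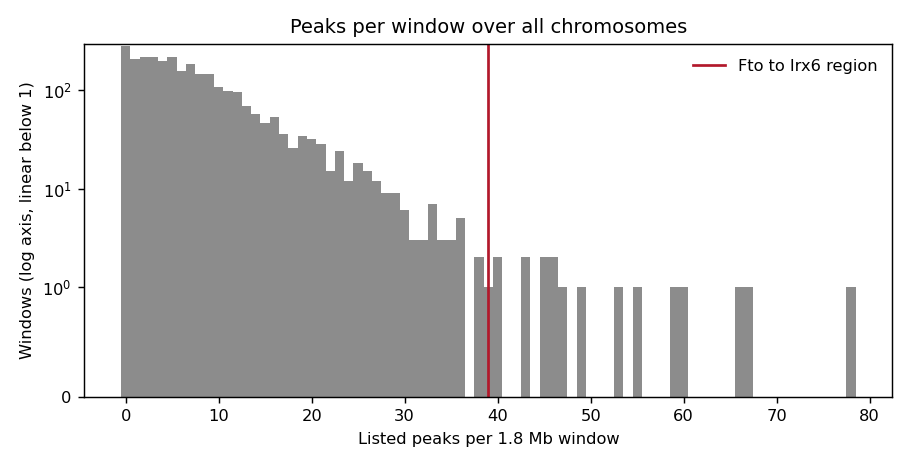
Number of 1.8 Mb windows (vertical axis, log scale above 1) by listed peaks per window (horizontal axis), with the region marked at 39. Windows held a median of 6 peaks, and 18 of 2796 overlapping windows held as many as the region or more.

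The surroundings of the strongest peak were compared with those of the other 9 peaks among the 10 strongest of the list, as a description. Within 900 kb of it lay 39 other summits, against a median of 23 (range 2 to 58) around the other 9. Of these, 4 were among the strongest 10%, against a median of 2 (range 0 to 6). The peak also had another strong peak nearby. The strongest other summit within 100 kb and more than 500 bp away had 0.696 times its signal, while around the other 9 this ratio ranged from 0.0747 to 0.392. No other of the 10 had a neighbour as strong as 166.5 within that distance. The comparison was not among the planned results, and it starts from the peak for which the region was selected. The members of such a comparison share 1 list, and the order of signal values has no replicate check.

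**Figure D5:**
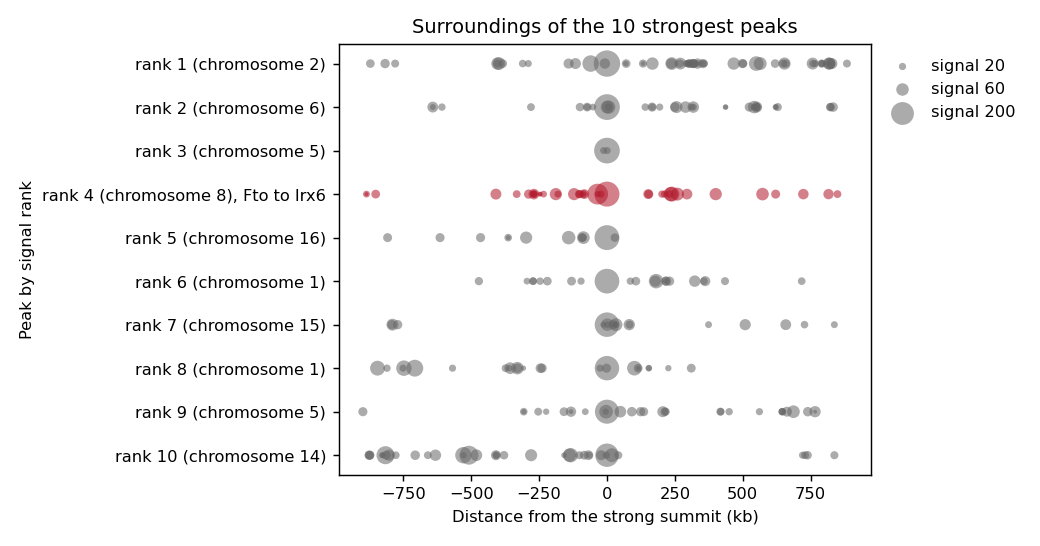
Each row shows the summits within 900 kb of 1 of the 10 strongest peaks of the list (vertical axis, by signal rank) by distance in kb (horizontal axis), with the area of a point in proportion to signal. The row of rank 4, in red, shows the peak between Fto and Irx3 with a second large point 34.3 kb to its left.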

How the data were processed

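The members, gene list and alternatives were chosen with earlier results of these data known. The file used is 1 list of peaks that the authors deposited for both TBX5 libraries, in narrowPeak layout without a header. The deposited score of each peak is a whole number and was read as -125 × log2(IDR). The list holds no IDR itself, so every IDR given here was calculated from the score. The lowest score of the list, 540, corresponds to the limit of 0.05. The deposited signal value is the peak caller's strength, with its normalization not stated. The deposited −log10 q-value reaches at most 3.95, and the authors gave no p-value (-1 throughout). Per the submitters' processing notes, the build is mm10 and FastQC was used, whereas the gene names here rest on the mm9 reading. Aligner, peak caller and settings are not given in the sources used here. These steps set which peaks are listed, so values were compared only within the list. Read depth and values of single libraries, input included, are unknown from it.

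Positions were made 1-based. Peaks were counted, ranked and joined with Python 3.11.15, NumPy 2.4.6 and pandas 2.3.3, and the functions were tested on simulated data. Windows tiled each chromosome between its outermost summits at steps of 50% of their length. An interval for shares came from SciPy 1.17.1 (Wilson, 95%) and served only to label alternatives. Figures used matplotlib 3.10.9. Named were Irx3, Irx5, Irx6 and Fto, the peaks of the strongest 10%, the lowest and highest peak of each interval and those nearest to each gene. The other peaks of the region were added after their values were seen. No test of ChIP against input was possible with 1 list.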

Additional observations from a re-analysis of the deposited data

How the results depend on the processing

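Of 43 alternative values, 30 were labelled as near the reported one and 13 as moved. Some alternatives could move only in a fixed direction, such as a stricter limit, another neighbour distance or the longer T-box form. The tally is therefore not a measure of how robust the results are. With an IDR of 0.01 or below, the region held 23 peaks in place of 39 and Fto 9 in place of 17. The interval from Fto to Irx3 held 2 in place of 4 and that from Irx5 to Irx6 2 in place of 4. The interval from Irx3 to Irx5 held 8 in place of 12, a fall labelled as near the reported value. Fto thus held only slightly more peaks than that interval at this limit. At that limit 1.15% of windows, in place of 0.644%, held as many peaks as the region, and its median signal was 44.3 (36.3 in the rest of the list). The median was 33.1 after joining overlapping or touching peaks, 32.1 when a q-value of at most 0.05 was required, and 33.1 when weaker summits within 500 bp of a stronger one were dropped, in place of 27.6. In the rest of the list it was then 28.7, 28.2 and 28.7. Another summit lay within 2 kb of 35.9% of the region's peaks (28.9% of the list) and within 50 kb of 87.2% (66.8% of the list). With Irx6 at the lower end of its rounding, 2 peaks lay after it in place of 1. The longer T-box form was found in 5.10% of promoters in place of 36.2%. Shifts of gene positions and the removal of weaker close summits were added after the data were seen. No paired analysis was possible because values per library were not analysed here, so leaving out a replicate was not run either. With depth unknown, an absence of listed peaks near Irx3 or Irx5 does not show an absence of binding.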
